A study of Mus musculus with 19 samples.

Results

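Bdnf encodes brain-derived neurotrophic factor, a secreted growth factor of neurons, and its transcript was followed here across 3 antagonists of the NMDA receptor. Every probe that the arrays assign to Bdnf was taken, which gave 2 of 41174 gene probes and 11 of 43379 gene spots. The title of the series names basal NMDA receptor activity, neuronal gene expression and survival, and Hdac4. Dissociated mouse hippocampal neurons kept for 21 days in culture were exposed for 6 h to vehicle, to AP5 at 100 µM, to NVP-AAM077 (called NVP) at 100 nM or to a compound labelled Ro25-4891 (called Ro25) at 1 µM, with 4 arrays for NVP and 5 for each other group. Each array set neuron RNA, in the red dye Cy5, against a commercial universal mouse reference RNA, in the green dye Cy3. The labels give no strain, sex or genotype, and do not say that the replicates were separate cultures, so the p-values reflect the spread of these samples alone, and that spread may be technical.

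AP5 blocks NMDA receptors of all subunit types by competing with glutamate. NVP competes with glutamate too and favours receptors with GluN2A. The number in the label of Ro25 is not that of the widely used GluN2B antagonist with the same prefix, so its identity is open. The 3 doses were not matched, and differences between the compounds are differences between these treatments as given.

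In neurons, calcium that enters through NMDA receptors and voltage-gated channels drives transcription of Bdnf, through CREB, MEF2 and Npas4 among other factors. The gene has several alternative first exons, each with its own promoter, spliced to 1 shared coding exon. The protein is made as a precursor, is cleaved by furin-like proteases inside the cell or by plasmin outside it, and signals through the receptor TrkB (Ntrk2), while the precursor binds p75 (Ngfr) with sortilin (Sort1).

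RefSeq (GRCm38.p6) places 7 starts of Bdnf transcripts on the plus strand of chromosome 2, over 48221 bases. The 250 bases before each start were searched on both strands for the cAMP response element, the binding sequence of CREB. Its full palindrome TGACGTCA was in none of the 7 windows, and in 1.55% of 32817 such windows over all genes. The form TCACGTCA was in 1 of the 7, the third along the chromosome, 38 bases before the start, and in 0.35% of all windows. It was the only form with 1 base changed from the palindrome that was searched, so these shares are no test of enrichment. The core CGTCA was in that same window, inside the longer match, and in 17.7% of all windows. The E-box CACGTG was in none of the 7 and in 6.02% of all windows. The third window is printed because it holds the match, and the first and the last because they mark the ends of the run of starts. The capitals mark TCACGTCA.
Bdnf window 3, chr2:109692186-109692435: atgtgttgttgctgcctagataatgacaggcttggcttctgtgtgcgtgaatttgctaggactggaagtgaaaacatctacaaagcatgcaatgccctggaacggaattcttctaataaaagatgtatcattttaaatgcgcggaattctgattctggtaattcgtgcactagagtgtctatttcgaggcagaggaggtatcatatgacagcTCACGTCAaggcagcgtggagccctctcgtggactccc
Bdnf window 1, chr2:109674450-109674699: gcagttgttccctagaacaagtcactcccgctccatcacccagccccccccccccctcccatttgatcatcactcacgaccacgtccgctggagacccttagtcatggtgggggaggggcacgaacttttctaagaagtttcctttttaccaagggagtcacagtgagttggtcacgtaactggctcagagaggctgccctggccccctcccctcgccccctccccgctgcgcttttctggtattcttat
Bdnf window 7, chr2:109722671-109722920: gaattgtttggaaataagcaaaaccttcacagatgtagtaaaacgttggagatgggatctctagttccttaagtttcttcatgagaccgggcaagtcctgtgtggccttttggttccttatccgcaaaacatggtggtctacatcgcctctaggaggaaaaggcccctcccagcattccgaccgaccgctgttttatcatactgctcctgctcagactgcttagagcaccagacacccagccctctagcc
A match is a description of these letters and not a measured binding site. The arrays measured transcript level only, and whether either probe tells which start a transcript came from was not analysed.

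The probe A_51_P261991 was spotted 10 times on each array, and A_52_P384100 once. Both are 60 bases long. In the mm8 assembly, the one the probes are annotated on, they lie on chromosome 2 at 109524885 to 109524944 and at 109527152 to 109527211, with starts 2267 bases apart. Their place in an exon or UTR was not analysed here. Both were well above background in the neuron and in the reference channel on all 19 arrays, and no Bdnf spot was saturated or marked by the extraction software. A_51_P261991 was the brighter and stands for the gene in the comparison over all 19201 genes tested.

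With AP5, Bdnf transcript fell to 0.290 of its level with vehicle, while with NVP and Ro25 it stayed far closer to vehicle. At A_51_P261991 the log2 ratio of neuron over reference RNA was 2.14, 2.45, 2.79, 2.48 and 2.42 on the 5 vehicle arrays. It was 0.83, 0.44, 0.49, 0.50 and 1.09 on the 5 AP5 arrays. All 5 AP5 arrays lay below every array of the other groups, with a gap of 0.77 to the lowest of them.
On the 4 NVP arrays the log2 ratio was 2.08, 2.06, 1.86 and 2.35, and on the 5 Ro25 arrays it was 2.40, 2.17, 2.49, 2.09 and 2.07. Both groups overlapped the vehicle arrays and each other. The group means were 2.46 ± 0.23 (SD, n = 5) with vehicle, 2.24 ± 0.19 (SD, n = 5) with Ro25, 2.09 ± 0.20 (SD, n = 4) with NVP and 0.67 ± 0.28 (SD, n = 5) with AP5. In that order, vehicle and Ro25 as well as Ro25 and NVP were neighbours whose arrays overlapped, and only the step from NVP to AP5 was without overlap.

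**Figure D1:**
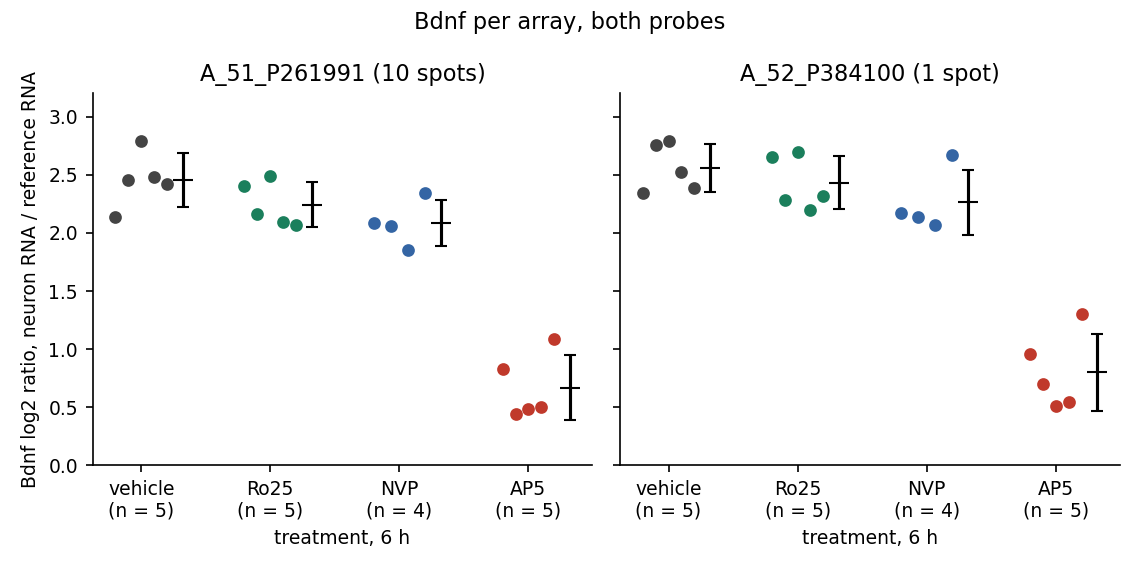
Bdnf log2 ratio of neuron RNA over reference RNA on each array (points) by treatment, with the mean and SD of each group (bars), for both probes. The AP5 arrays of A_51_P261991 lie between 0.44 and 1.09, below every array of the other 3 groups, and A_52_P384100 shows the same separation.

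The difference between AP5 and vehicle was -1.79 on the log2 scale (SE 0.13, 95% interval -2.07 to -1.51, limma adjusted p = 6.13e-08 over all genes tested). As a fold this was 0.290 of the vehicle level (interval 0.239 to 0.352), or 71% lower. Of the 19201 genes tested 18.0% were called between AP5 and vehicle, 7.22% were called lower and 0.0990% were called lower by at least 2-fold, 19 genes with Bdnf first among them by size. The groups did not overlap in the lower direction for 4.49% of genes. The exact two-sided permutation test on the 10 arrays gave p = 0.00794, the smallest that 5 against 5 allows, and 0.0159 after adjustment over the 6 pairs of groups.

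For NVP the difference from vehicle was -0.37 (SE 0.14, interval -0.67 to -0.07), or 22.6% lower. It had an unadjusted limma p of 0.0179 and did not pass after adjustment (adjusted p = 0.471). The exact two-sided permutation test gave p = 0.0476, and 0.0714 after adjustment over the 6 pairs. At an adjusted p of 0.05 limma called 0 genes between NVP and vehicle, against 1592 (8.29%) at an unadjusted p of 0.05.
For Ro25 the difference from vehicle was -0.21 (SE 0.13, interval -0.49 to 0.07, adjusted p = 0.932), and the exact permutation p was 0.151. limma called 0 genes here too, against 1182 (6.16%) at an unadjusted p of 0.05. The intervals allow a Bdnf level up to 37.1% lower than vehicle with NVP, and up to 29% lower or 4.88% higher with Ro25.

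Set directly against the other antagonists, AP5 arrays were lower in Bdnf by amounts close to the difference from vehicle. AP5 minus NVP was -1.42 (SE 0.14, interval -1.72 to -1.12, adjusted p = 4.23e-06), where 4.24% of genes were called and 3.03% had no overlap in the lower direction. AP5 minus Ro25 was -1.57 (SE 0.13, interval -1.86 to -1.29, adjusted p = 5.72e-07), where 6.06% of genes were called and 2.46% had no overlap in the lower direction. In both comparisons Bdnf had the lowest value of all genes tested, and the exact permutation p was 0.00794, the smallest possible. NVP minus Ro25 was -0.16 (SE 0.14, interval -0.46 to 0.14, adjusted p = 1, exact permutation p = 0.238), and the 0 genes called there compare with 300 (1.56%) at an unadjusted p of 0.05. These comparisons share arrays, so they are not independent of each other. With the slide of each array as a fixed term, AP5 minus NVP was -0.884 (adjusted p = 0.104) and AP5 minus Ro25 was -0.927 (adjusted p = 0.244), and neither passed.

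The second probe gave the same order of groups. At A_52_P384100 the log2 ratio was 2.35, 2.76, 2.79, 2.53 and 2.39 with vehicle and 0.96, 0.70, 0.51, 0.54 and 1.30 with AP5. It was 2.17, 2.14, 2.07 and 2.68 with NVP and 2.66, 2.29, 2.70, 2.20 and 2.32 with Ro25. Again all 5 AP5 arrays lay below every other array, and the other 3 groups overlapped. The difference from vehicle was -1.76 (SE 0.15, interval -2.08 to -1.44, limma adjusted p = 3.33e-07 over 28640 probes) with AP5, -0.30 (interval -0.64 to 0.04) with NVP and -0.13 (interval -0.45 to 0.19) with Ro25. Over the 19 arrays the log2 ratios of the probes had r = 0.991, a value that the gap between AP5 and the rest sets in large part, and A_52_P384100 was higher by 0.15 on average. A_52_P384100 is also the Bdnf probe that the authors' deposited table holds, with mean log2 values there of 2.54 for vehicle, 2.42 for Ro25, 2.25 for NVP and 0.78 for AP5.

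The 10 copies of A_51_P261991 show how precisely 1 array measured Bdnf. The SD between the 10 spots of an array was 0.05 when pooled, and ran from 0.02 to 0.09, while the SD between arrays of a group was 0.23. Taken spot by spot, the difference between AP5 and vehicle ran from -1.87 to -1.73, that between NVP and vehicle from -0.44 to -0.33, and that between Ro25 and vehicle from -0.27 to -0.17. The spread that limits these comparisons thus lay between arrays of a group and not between spots. Spots of 1 array are not replicates of a treatment and entered every test as 1 mean.

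**Figure D2:**
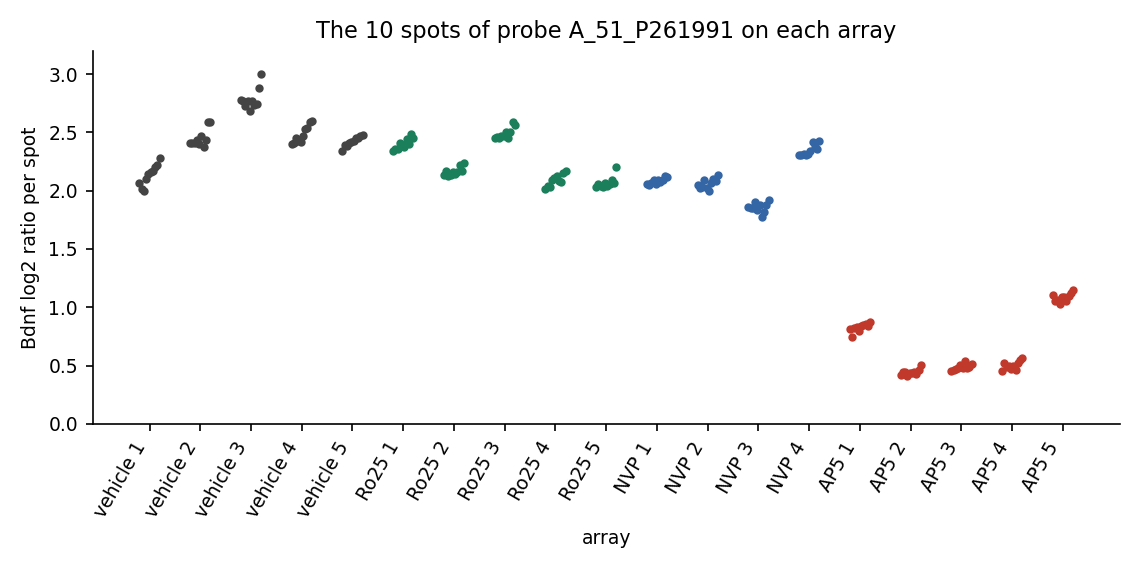
Bdnf log2 ratio at each of the 10 spots of A_51_P261991 (points), array by array, coloured by treatment. The spots of an array lie close together (pooled SD 0.05), and no spot of an AP5 array reaches the lowest spot of another group.

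The difference lay in the neuron channel. The mean spot signal of A_51_P261991 in red, before any correction, was 3811, 3156, 3345, 2979 and 3954 on the AP5 arrays and 8911, 10373, 13180, 11883 and 11092 on the vehicle arrays. It was 8256 to 10885 on the NVP arrays and 7453 to 12267 on the Ro25 arrays. Local red background was 52 to 64 on all arrays, so the AP5 signal stood well clear of it. The reference signal in green was 756 to 1073 on the 19 arrays, with the groups overlapping.

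After quantile normalization of each channel by itself, red differed between AP5 and vehicle by -2.02 (interval -2.32 to -1.72, limma adjusted p = 6.28e-08), between NVP and vehicle by -0.47 (interval -0.79 to -0.15, adjusted p = 0.574) and between Ro25 and vehicle by -0.28 (interval -0.58 to 0.02, adjusted p = 1). Green should hold the same RNA on every array. At A_51_P261991 it differed between AP5 and vehicle by -0.08 (interval -0.12 to -0.04, adjusted p = 0.0306) with no overlap, and at A_52_P384100 by 0.05 (interval -0.02 to 0.12, adjusted p = 0.329). A lower reference raises the ratio, so the green shift of A_51_P261991 runs against the fall in the ratio. That of A_52_P384100, which did not pass, runs with the fall.

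**Figure D3:**
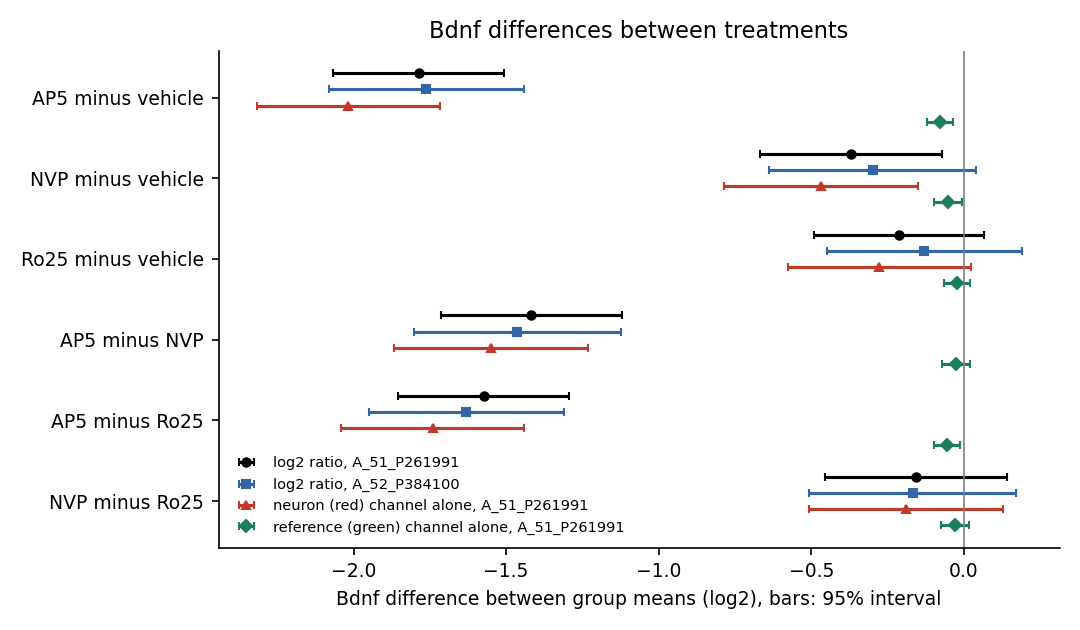
Differences in Bdnf between pairs of treatments (log2, points) with 95% intervals (bars), for the log2 ratio at both probes and for the red and the green channel alone at A_51_P261991. The 3 pairs with AP5 lie between -1.42 and -2.02 in the ratio and the red channel, the other pairs between -0.13 and -0.47, and green lies within 0.08 of 0.

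Slide and treatment were tied together. Slide 1 carried AP5 1 to AP5 4 and slide 5 carried vehicle 1, 3, 4 and 5, and AP5 and vehicle met on no slide. On slide 2, AP5 5 was lower in Bdnf than the mean of NVP 1 and NVP 3, at 1.09 against 1.97, a difference of -0.88 (-0.82 at A_52_P384100). On slide 3, NVP minus Ro25 was -0.04 over 2 arrays each, and on slide 4 the mean of 3 Ro25 arrays minus vehicle 2 was -0.21.
With slide as a fixed term, AP5 minus vehicle was -1.14 (SE 0.38) and did not pass (adjusted p = 0.363). In that fit the AP5 value comes only through AP5 5, the AP5 array with the highest Bdnf. With slide and the astrocyte signal as terms together, a fit chosen after seeing the data, AP5 minus vehicle was -1.83 (SE 0.24, adjusted p = 0.00507). There too AP5 was tied to the other groups only through AP5 5, the AP5 array with the least astrocyte signal. The move from -1.14 thus rests on the astrocyte slope, which did not pass with every way of processing the arrays. With slide as a random block, which keeps the comparison across slides, AP5 minus vehicle was -1.81 (SE 0.12, adjusted p = 6.36e-09). The correlation within slides estimated for that fit was negative, at -0.0777, and the SE was smaller than without slide (0.117 against 0.134). That fit thus made no allowance for a slide effect tied to treatment. A slide effect particular to slides 1 and 5 and the effect of AP5 cannot be told apart.

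The cultures held astrocytes as well as neurons. Of 15 neuronal markers 14 were measured on every array, with a mean log2 ratio of 4.66 to 5.23 per array, Map2 and Snap25 among the highest. Of 17 astrocyte markers 16 were measured on every array, with a mean of 3.06 to 4.57, led by the glutamate transporter Slc1a2. Microglial markers were low, with 11 of 14 measured, group means of -2.27 to -2.11, and Itgam, P2ry12 and C1qc well above background on 0 arrays. In bulk RNA, fewer cells of a type and less RNA per cell cannot be told apart.
The astrocyte mean was 3.81 ± 0.41 (SD, n = 5) with vehicle, 3.89 ± 0.50 (SD, n = 5) with Ro25, 3.97 ± 0.56 (SD, n = 4) with NVP and 4.05 ± 0.51 (SD, n = 5) with AP5, with full overlap of the groups. The neuron mean was 4.87 ± 0.15 with vehicle and 5.10 ± 0.10 with AP5, and its bearing on the Bdnf difference was not tested. The summed red signal of the neuron list was 309332 to 371619 with vehicle and 308217 to 364814 with AP5. That of the astrocyte list was 331749 to 787607 with vehicle and 294731 to 762124 with AP5.

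Within treatments, arrays with less astrocyte signal had more Bdnf in most of the fits run, though not with every way of processing the arrays. In each of the 4 groups 1 array stood apart with a low astrocyte mean, Ro25 3 at 3.06, vehicle 3 at 3.11, NVP 4 at 3.17 and AP5 5 at 3.22, where the next lowest of all arrays had 3.88. At both probes each of these 4 arrays had the highest Bdnf of its group, namely 2.49, 2.79, 2.35 and 1.09 at A_51_P261991. With the groups as terms, Bdnf changed by -0.42 (SE 0.05, interval -0.53 to -0.31, adjusted p = 5.63e-06) per log2 unit of the astrocyte mean, a slope for which 33.3% of all genes passed the test and 17.4% passed with a negative sign. The 15 arrays without those 4 gave a slope of -0.62 (SE 0.15, adjusted p = 0.0194). These fits take the arrays as independent, and whether those 4 share a culture was not tested. The slope did not pass with normexp fitted to all spots (-0.234, adjusted p = 0.0629), and it turned positive and did not pass with log ratios scaled to equal spread (0.095, adjusted p = 0.485).

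Over those 15 arrays the deviations of Bdnf from its group means at A_51_P261991 had Pearson's r = -0.787 with the deviations of the astrocyte mean (permutation p = 0.00363, adjusted p = 0.0104 over 20 relations) and Spearman's rho = -0.743 (permutation p = 0.00707, adjusted p = 0.0202). Without the 2 arrays farthest from the median r was -0.804. At A_52_P384100 r was -0.459 (permutation p = 0.142, adjusted p = 0.189) and rho was -0.336 (permutation p = 0.287, adjusted p = 0.383), so there the relation did not pass, and the difference between the probes was not tested. Over all 19 arrays both probes passed. There r was -0.901 at A_51_P261991 (permutation p = 1e-05, adjusted p = 2e-04) and -0.828 at A_52_P384100 (permutation p = 0.00029, adjusted p = 0.00116).
Bdnf also ran with the neuron mean over these 15 arrays. There r was 0.754 (permutation p = 0.00532, adjusted p = 0.0133) and rho 0.757 (permutation p = 0.00295, adjusted p = 0.0118) at A_51_P261991, and r was 0.768 without the 2 farthest arrays. At A_52_P384100 r was 0.778 (permutation p = 0.00756, adjusted p = 0.0153) and rho 0.682 (permutation p = 0.0228, adjusted p = 0.0415). With the microglial markers r was 0.234 and 0.196 at the 2 probes (permutation p = 0.472 and 0.528, adjusted p = 0.509 and 0.528). Over all 19 arrays the microglial r was 0.639 and 0.637 (permutation p = 0.0083 and 0.0084, adjusted p = 0.0153 at both). There the microglial rho did not pass (permutation test, adjusted p = 0.053 and 0.0591). The neuron r over all 19 arrays was 0.826 and 0.832 (permutation p = 7e-05 and 0.00011, adjusted p = 0.000467 and 0.00055).
Relations with markers of other cells varied with the probe and the arrays used. Over all 19 arrays r was -0.876 and -0.733 at the 2 probes with the oligodendrocyte lineage (permutation p = 6e-05 and 0.00225, adjusted p = 0.000467 and 0.0075). It was -0.18 and -0.185 with endothelial and fibroblast markers (permutation p = 0.484 and 0.469, adjusted p = 0.509 at both). The values that follow are over the 15 arrays. With 9 markers of the oligodendrocyte lineage r was -0.726 (permutation p = 0.0109, adjusted p = 0.0182) and rho -0.682 (permutation p = 0.0119, adjusted p = 0.0298) at A_51_P261991, and r was -0.707 without the 2 farthest arrays. At A_52_P384100 r was -0.342 (permutation p = 0.291, adjusted p = 0.364) and rho -0.232 (permutation p = 0.486, adjusted p = 0.607). With 6 endothelial and fibroblast markers r was 0.595 (permutation p = 0.0365, adjusted p = 0.0562) and rho 0.671 (permutation p = 0.0156, adjusted p = 0.0347) at A_51_P261991, and r was 0.552 (permutation p = 0.102, adjusted p = 0.146) and rho 0.611 (permutation p = 0.0523, adjusted p = 0.0747) at A_52_P384100.

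The difference between AP5 and vehicle was about as large with the astrocyte signal in the model. With the astrocyte mean as a covariate, AP5 minus vehicle was -1.69 (SE 0.07, adjusted p = 7.97e-12), NVP minus vehicle -0.30 (SE 0.07, adjusted p = 0.142) and Ro25 minus vehicle -0.18 (SE 0.06, adjusted p = 0.38). Without the 4 low arrays AP5 minus vehicle was -1.81 (SE 0.10, adjusted p = 5.9e-08). AP5 5, the AP5 array with the least astrocyte signal, still had less Bdnf than all 14 arrays of the other groups. The smallest ratio outside AP5, 1.86 on NVP 3, was on the NVP array with the most astrocyte signal, 4.44.

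**Figure D4:**
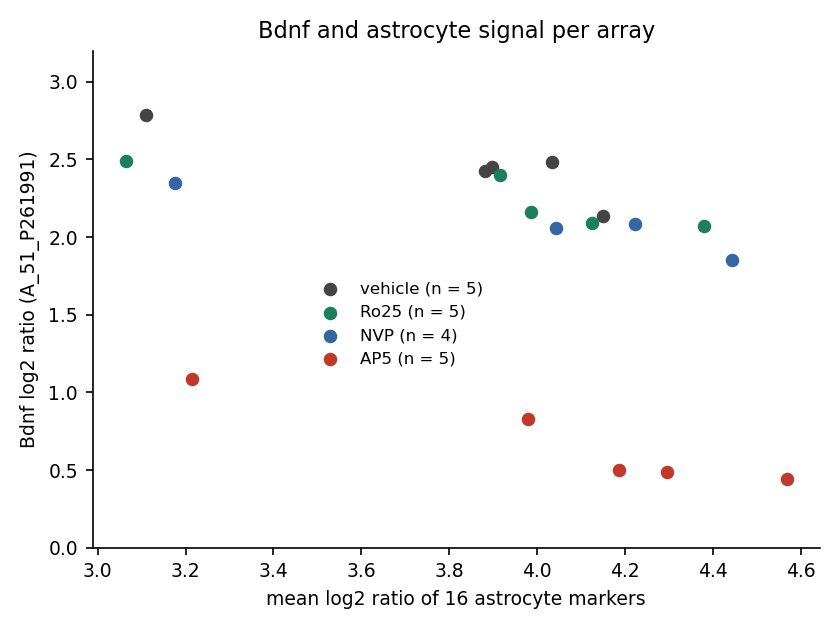
Bdnf log2 ratio at A_51_P261991 (vertical axis) against the mean log2 ratio of 16 astrocyte markers (horizontal axis) on each of the 19 arrays, coloured by treatment. Each group has 1 array below 3.3 on the horizontal axis, which is also its highest in Bdnf, and the 5 AP5 arrays lie below the rest along the whole range.

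Of the other neurotrophins and the receptors, 8 were measured. Between AP5 and vehicle 1 was lower, 1 higher and 6 did not pass, where 7.22% of all genes were lower and 10.8% higher, so the share called was not far from that over all genes. The median difference of the list was 0.14 against 0.01 over all genes.
Ntf5, neurotrophin 4/5, the other ligand of TrkB, was lower by a difference of -0.25 (SE 0.06, limma adjusted p = 0.00586), but red alone gave 0.04 and the fit with slide as a fixed term 0.02. Ngfr, the p75 receptor, was higher by 0.28 (SE 0.07, adjusted p = 0.00974), though its probes ran from 0.02 to 0.28 and slide as a fixed term gave -0.03. Red alone gave 0.01 for Ngfr, and log ratios scaled to equal spread gave 0.15 (limma adjusted p = 0.0607). Ntrk2, which encodes TrkB, had a log2 ratio of 6.64 ± 0.26 with vehicle and 7.0 ± 0.15 with AP5 (difference 0.36, adjusted p = 0.126, and -1.15 with log ratios scaled to equal spread).
The neurotrophin Ntf3 differed by 0.08 (adjusted p = 0.75, with 4 vehicle arrays measured), its receptor Ntrk3 by 0.12 (adjusted p = 0.652) and Sort1 by 0.19 (adjusted p = 0.295), each turning negative with scaled log ratios. With slide as a fixed term limma called 0 of the 8 (0 at an unadjusted p of 0.05). Beside the -1.79 of Bdnf, the differences of the ligands Ntf5 and Ntf3 were thus small, a gap that was not tested.

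Of the genes for processing and secretion of the protein, 3 of 15 measured were lower and 4 higher with AP5 than with vehicle, where 7.22% of all genes were lower and 10.8% higher. Furin, a protease that cleaves the precursor inside the cell, fell from 0.00 ± 0.06 to -0.57 ± 0.12 (difference -0.56, SE 0.06, adjusted p = 2.6e-06). Plat, tissue plasminogen activator, was higher by 0.43 (SE 0.08, adjusted p = 0.00131) at its brightest probe and by 0.12 at the least changed one. Pcsk5, a protease of the furin family, rose by 0.82 (SE 0.18, adjusted p = 0.00427), with 4 vehicle arrays measured and -0.25 under slide and astrocyte terms together. The list's median difference was 0.13. In the fit with slide as a fixed term limma called 0 of the 15 (3 lower and 1 higher at an unadjusted p of 0.05), with -0.53 for Furin (adjusted p = 0.361) and 0.16 for Plat (adjusted p = 0.835).

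Of the regulators of Bdnf transcription, 6 of 23 measured were lower and 4 higher with AP5, against 7.22% lower and 10.8% higher of all genes. Npas4, an activity-induced factor that binds Bdnf promoters, fell from 1.25 ± 0.30 to -0.08 ± 0.09 (difference -1.33, SE 0.13, adjusted p = 1.31e-06), and its red signal was well above background on 1 of 5 AP5 arrays and 5 of 5 vehicle arrays. With most of its AP5 arrays at background, the size of that fall is uncertain, and the deposited log ratio of the extraction software gave -3.45. Hdac5, a class IIa histone deacetylase, fell from 0.76 ± 0.07 to 0.19 ± 0.03 (difference -0.57, adjusted p = 1.39e-07). Nfatc4, a calcium-regulated factor, fell by 0.35 (difference -0.35, adjusted p = 0.00128), and Ppargc1a, a coactivator, rose by 0.52 (adjusted p = 0.000109), with the opposite signs under scaled log ratios (0.09 and -0.28). The list's median difference was 0.06. Under slide as a fixed term limma called 0 of the 23 (2 lower and 2 higher at an unadjusted p of 0.05), with -1.11 for Npas4 (adjusted p = 0.424) and -0.46 for Hdac5 (adjusted p = 0.344). Crtc1, a coactivator of CREB, did not pass the filter on low signal.

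Of the components of TrkB signalling, 1 of 26 was lower and 5 were higher with AP5, against 7.22% lower and 10.8% higher of all genes, with a median difference of 0.02. Rps6ka5, a kinase that phosphorylates CREB and histone H3, rose by 0.62 (SE 0.08, adjusted p = 4.52e-05), and by 1.01 with the deposited log ratio. Pik3r1, a regulatory subunit of phosphoinositide 3-kinase, rose by 0.35 (SE 0.06, adjusted p = 0.000392), and by 1.32 with log ratios scaled to equal spread. Ptpn11, the phosphatase SHP2, rose by 0.21 (SE 0.05, adjusted p = 0.00845), with -0.05 under slide as a fixed term. Sos1, an activator of Ras, differed by -0.25 (SE 0.07, adjusted p = 0.0225), but its probes ran from -0.25 to 0.15 and the authors' deposited table gave 0.12. Of the 26, limma called 0 with slide as a fixed term (0 lower and 2 higher at an unadjusted p of 0.05), with 0.82 for Rps6ka5 (adjusted p = 0.344) and 0.17 for Pik3r1 (adjusted p = 0.75).

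Transcripts that TrkB signalling or neuronal activity is known to induce moved mostly with Bdnf. Of 30 measured, 19 were lower and 1 higher with AP5 than with vehicle, against 7.22% lower and 10.8% higher of all genes, and their median difference was -0.55 against 0.01. With slide as a fixed term limma called 0 of the 30 lower (5 at an unadjusted p of 0.05), their median difference was -0.24 and 10 genes were called in all. With slide and astrocyte terms together 3 of the 30 were called lower (16 at an unadjusted p of 0.05), their median was -0.65 and 21 genes were called in all.
The nuclear receptor Nr4a1 fell from -1.01 ± 0.19 to -2.46 ± 0.12 (difference -1.45, SE 0.08, adjusted p = 5.02e-09). Ptgs2, cyclooxygenase 2, fell from -1.12 ± 0.38 to -2.61 ± 0.13 (difference -1.49, SE 0.16, adjusted p = 3.54e-06). Plk3, a polo-like kinase, fell from -0.26 ± 0.30 to -1.64 ± 0.23 (difference -1.38, SE 0.15, adjusted p = 3.63e-06).
With NVP and with Ro25 limma called 0 of the 102 entries of the 5 lists against vehicle (Npas4 counts under 2 lists), as against 14 and 17 at an unadjusted p of 0.05. In the last list 3 of 30 were lower with NVP at an unadjusted p of 0.05, against 3.53% of all genes, and 10 of 30 with Ro25, against 2.92%, and the medians of the last list were -0.12 and -0.19. Npas4 differed from vehicle by -0.33 with NVP and -0.70 with Ro25, Nr4a1 by -0.26 and -0.41, and Ptgs2 by -0.37 and -0.63. For these 3 genes the value with Ro25 was the lower of the pair, whereas for Bdnf it was that with NVP, an order that was not tested. Vgf and Dusp5 did not pass the filter on low signal.

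The genes whose log2 ratio over the 19 arrays was most like that of Bdnf were ranked by Pearson's r among 15244 genes with an official symbol. The ranking depends largely on whether a gene was lower with AP5, since the 5 AP5 arrays stand apart, and the arrays share their slides and normalization. The median r over these genes was -0.03, with 0.852 at the 99th percentile. The highest were 5033430I15Rik (r = 0.984), Adam19 (0.981), Hectd2 (0.979), Plekho1 (0.975), Plk3 (0.975), Rhobtb2 (0.968), Rasl11a (0.966), Hdac5 (0.965), Magi1 (0.964) and Ahr (0.963).
All 10 were lower with AP5 than with vehicle, by differences from -0.50 (Ahr, the aryl hydrocarbon receptor) to -1.38 (Plk3), and none was as large as that of Bdnf. Adam19, a membrane protease, was measured by 3 probes, of which the least like Bdnf had r = 0.331. The least like probe of Magi1, a scaffold protein, had r = 0.564. Between AP5 and NVP these 10 genes differed by -0.38 (Hdac5) to -1.20 (Plk3).

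**Figure D5:**
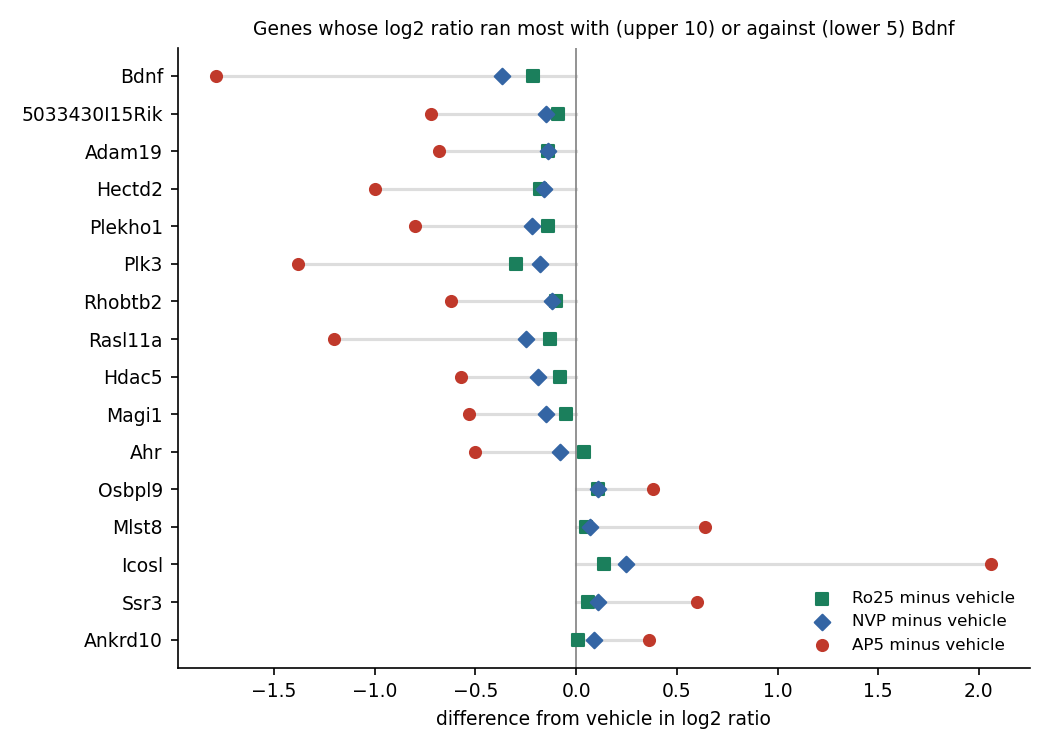
Differences from vehicle in log2 ratio (horizontal axis) for Bdnf, the 10 genes with the highest r and the 5 with the lowest r to it over 19 arrays, with 1 point for each antagonist. In all 16 genes the AP5 point lies farthest from 0, from -1.79 for Bdnf to 2.06 for Icosl, as the choice by r favours.

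The lowest r belonged to Osbpl9 (-0.957), Mlst8 (-0.957), Icosl (-0.951), Ssr3 (-0.950) and Ankrd10 (-0.949), each higher with AP5 than with vehicle. Icosl, the ligand of an immune co-stimulator, had the largest of these differences, from 0.19 ± 0.21 with vehicle to 2.25 ± 0.17 with AP5. Its deviations from group means had r = -0.15 with those of Bdnf, so within treatments it did not mirror Bdnf.

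Ranked instead by r of deviations from the group means, which leaves the treatments out, the genes most like Bdnf were Smyd4 (0.966), Smim18 (0.959), Atg12 (0.954), Egr1 (0.954) and Enox1 (0.952). None of these 5 was among the 10 ranked over all arrays. Atg12, a component of autophagy, ran with Bdnf within treatments and yet was higher with AP5 than with vehicle by 0.49 (adjusted p = 6.53e-05). Egr1, an activity-induced zinc finger factor, ran with Bdnf within treatments and was lower with AP5, by a difference of -0.71 (adjusted p = 0.00127). Smyd4, Smim18 and Enox1 differed from vehicle by -0.03, 0.17 and -0.18 with AP5 (adjusted p = 0.948, 0.466 and 0.352). The astrocyte signal varied along the same within-treatment axis, and its part in these values of r was not tested.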

How the data were processed

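RNA of 19 neuron samples was hybridised to two-colour Agilent mouse arrays without dye swap. Per the file headers, the intensity of each spot was extracted with Feature Extraction 9.5.3.1, though version 11.0 of Agilent Feature Extraction is named in the submitters' processing notes. The log10 ratio deposited by the authors was already background-subtracted and dye-normalized, per the file headers, and served as an alternative. The authors' deposited table holds log2 values for 20674 probes. Set against the ratios computed here it showed r of 0.9986 to 0.9998, slopes of 0.9907 to 1.011 and column medians of 0.0345 to 0.0478, that is, log2 of red over green with centring unknown. The deposited flags for marked spots, saturation and signal above background are yes or no values (unit other).

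Marked spots were removed (117 to 266 per array, 1642 on vehicle 5), the background corrected with normexp (offset 50) and the log2 ratio normalized by loess within arrays. Spots of a probe were averaged, probes kept if 4 or more arrays had red well above background, and each gene represented by its brightest probe. Symbols came from RefSeq (GRCm38.p6), with 23374 probes matched by accession, 6733 by symbol and 2919 by synonym, and 8148 keeping the file's name. limma 3.58.1 in R 4.3.3 fitted all 19 arrays as 4 groups, with Benjamini-Hochberg adjustment over all genes tested and a threshold of 0.05. Tests were two-sided, and the procedure was tested on simulated data. Median red signal was 135.5 to 177.8 per array, and the number of arrays limits the precision.

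Bdnf, the gene lists and the markers were chosen with earlier results of these data known. Named genes were, besides Bdnf and the neurotrophins with their receptors, up to 4 called members per list by smallest adjusted p, the 10 genes with the highest and 5 with the lowest r to Bdnf, and 5 by r of deviations. Some genes that this rule takes are not reported here.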

Additional observations from a re-analysis of the deposited data

Results flagged for a closer look

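Each measure of Bdnf and of the astrocyte and neuron markers was checked for a single array far from the rest of its group, in 32 groups of 4 or 5 arrays. Chance alone would mark about 1 group in 20. The check picked out 1 value, the astrocyte marker mean of vehicle 3, which was 3.109 where the nearest vehicle array had 3.881, a gap of 0.742 of the group's range. Vehicle 3 also had the highest Bdnf of the vehicle arrays, 2.79 at A_51_P261991. Without vehicle 3, AP5 minus vehicle was -1.70 for Bdnf, and the slope of Bdnf on the astrocyte mean was -0.41.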

How the results depend on the processing

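Over the alternatives run, Bdnf stayed lower with AP5 than with vehicle in every one, from -2.25 (log ratios scaled to equal spread) to -1.14 where the log2 ratio or red alone was used. Slide as a fixed block ended the call for AP5 minus vehicle (-1.138, adjusted p = 0.363), AP5 minus NVP (-0.884, adjusted p = 0.104) and AP5 minus Ro25 (-0.927, adjusted p = 0.244). The fit with slide and astrocyte terms together kept those calls. That fit, and the slope and marker relations over 15 arrays, were chosen after seeing the data. The green channel alone, which holds reference RNA, gave -0.026 for AP5 minus NVP and -0.055 for AP5 minus Ro25, both uncalled. Scaling moved NVP minus vehicle from -0.37 to -0.883 and Ro25 minus vehicle from -0.213 to -0.738. Neither was called with scaling (adjusted p = 0.175 and 0.15), and the medians over all genes were -0.001 and -0.005. The slope of Bdnf on the astrocyte mean was -0.234 with normexp fitted to all spots (adjusted p = 0.0629), 0.095 with scaled log ratios (adjusted p = 0.485), and 1.429 when the neuron mean took the place of the astrocyte mean. The cause was not tested for any of these.

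Leaving out 1 array at a time gave -1.891 to -1.704 for AP5 minus vehicle, -0.456 to -0.287 for NVP minus vehicle, -0.293 to -0.13 for Ro25 minus vehicle, -1.521 to -1.33 for AP5 minus NVP, -1.678 to -1.512 for AP5 minus Ro25, -0.244 to -0.081 for NVP minus Ro25 and -0.46 to -0.396 for the slope, with no call changed. Genes called between AP5 and vehicle ranged from 10 (slide as a fixed block) to 5593 (astrocyte covariate) against 3464, between AP5 and NVP from 106 to 1641 against 814, and between AP5 and Ro25 from 16 to 2093 against 1164.

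Differences of other genes between AP5 and vehicle that changed sign were as follows. With scaled log ratios they were -0.28 for Ppargc1a, 0.09 for Nfatc4, -1.15 for Ntrk2, -0.58 for Ntrk3, -1.12 for Sort1 and -0.19 for Ntf3. With red alone they were 0.04 for Ntf5, -0.04 for Ntrk2, -0.25 for Ntrk3, -0.08 for Sort1 and -0.33 for Ntf3. With slide as a fixed block they were 0.02 for Ntf5, -0.03 for Ngfr, -0.05 for Ptpn11, -0.79 for Ntrk2 and -0.06 for Ntrk3. With slide and astrocyte terms they were 0.14 for Ntf5, -0.10 for Ngfr, -0.25 for Pcsk5, -0.02 for Ppargc1a, -0.14 for Ntrk2, -0.23 for Ntrk3 and -0.24 for Sort1. With normexp fitted to all spots they were -0.09 for Ntrk3, -0.07 for Sort1 and -0.18 for Ntf3. The authors' deposited table gave 0.12 for Sos1. Without a change of sign, slide as a fixed block also ended the calls of Furin, Plat, Pcsk5, Hdac5, Npas4 and Ppargc1a. It likewise ended those of Nfatc4, Rps6ka5, Pik3r1, Sos1, Nr4a1 (-1.46, adjusted p = 0.126), Ptgs2 (-1.05, adjusted p = 0.497) and Plk3 (-0.77, adjusted p = 0.545). Of all these, the fit with slide and astrocyte terms restored those of Nr4a1, Ptgs2 and Plk3. Pcsk5 was also uncalled with the deposited log ratio (1.18, limma adjusted p = 0.368) and with scaled log ratios (0.5, limma adjusted p = 0.109). Ntf3 ran from -0.02 to 0.19 over the fits without 1 array.

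Replicate numbers gave no sign of pairing the samples, but the correlations varied widely and cannot show that the samples were unpaired. Arrays with the same number had a median correlation of deviations of -0.203 (27 pairs, -0.624 to 0.766), against 0.064 for other pairs (108 pairs, -0.727 to 0.83). Pairing under other numbers was not tested. Each group held 1 array low in astrocyte signal (AP5 5, NVP 4, Ro25 3 and vehicle 3), and a shared origin of these was not tested either. With a replicate block Bdnf gave -1.787 for AP5 minus vehicle (adjusted p = 3.72e-06), -1.434 for AP5 minus NVP, -1.574 for AP5 minus Ro25 and a slope of -0.44.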
